A study of Mus musculus with 4 samples.

Results

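Ttr, Folr1, Clic6, Kcnj13 and Kl are genes known from the choroid plexus. They were chosen by their symbols, with earlier results of these data in view, and are 5 of the 19465 genes in the files. Their presence in the plexus is therefore a description and not a finding. Gene expression was measured with Visium, which counts unique molecular identifiers (UMIs, each 1 captured molecule) in barcoded spots under a tissue section. Each spot may cover several cells, also of unlike types. The samples were formalin-fixed, paraffin-embedded coronal sections of whole heads of wild-type C57BL/6J mouse embryos, with no treatment named. At embryonic day 14.5 (E14.5) and at 15.5 (E15.5), a capture area held replicate 1 as a single section and a second area held replicates 2, 3 and 4 as 3 sections. The labels do not say which section is which replicate, so the sections of a shared area are called A, B and C.

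The 4 areas held 6357 tissue spots with counts. The E14.5 replicate 1 area was the shallowest, with 1106 spots and a median of 6752 UMIs per spot. In the shared E14.5 area, sections A, B and C had medians of 10037.5, 59411 and 65616 UMIs. The E15.5 replicate 1 area had a median of 64051 UMIs over 989 spots, and in the shared E15.5 area the medians of A, B and C were 38795, 43551 and 55499 UMIs. The E14.5 replicate 1 section and the E14.5 section A therefore carry little information on rare transcripts. Levels are given as UMIs per 1000000 UMIs (CPM) of the spots named. How well each gene is captured is not known, so levels of different genes were not ranked against each other. Bounds in parentheses are exact 95% intervals, which cover counting error only. For 0 UMIs, the level that 3 UMIs would give is stated instead, as a floor.

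The choroid plexus is a folded epithelium that hangs into the brain ventricles and secretes cerebrospinal fluid. Transthyretin (Ttr) carries thyroxine and the retinol-binding protein. Folr1 encodes folate receptor alpha, which takes up folate. Clic6 belongs to the chloride intracellular channel family, Kcnj13 encodes the inward rectifier potassium channel Kir7.1, and Kl encodes klotho, the co-receptor for the hormone Fgf23. The retinal pigment epithelium, a pigmented sheet behind the retina, is also known to express several of them. All 5 are protein-coding genes in the GENCODE M21 annotation of GRCm38. Kcnj13 lies at chr1:87386363-87394729 on the minus strand and Kl at chr5:150952607-150993817 on the plus strand. Folr1 lies at chr7:101858331-101870788 on the minus strand, Clic6 at chr16:92485736-92541243 and Ttr at chr18:20665280-20674321, both on the plus strand.

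Ttr differed between areas far more than the other members. Its level was 6.61 CPM in the E14.5 replicate 1 area and 1957 CPM in the shared E14.5 area, against 8.30 CPM and 202.9 CPM in the E15.5 areas of the same kind. By section, Ttr stood at 6.61 CPM (replicate 1), 39.7 CPM (A), 995.7 CPM (B) and 3621 CPM (C) at E14.5. At E15.5 it stood at 8.31 CPM (replicate 1), 11.2 CPM (A), 3.91 CPM (B) and 596.1 CPM (C). Sections B and C at E14.5 and section C at E15.5 were thus high, and the ranges of the stages overlapped. The spot richest in Ttr held 3289, 12447 and 1373 Ttr UMIs in these 3 sections, and at most 60 in any of the other 5. In such sections, fewer plexus cells and less RNA per cell cannot be told apart.

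**Figure D1:**
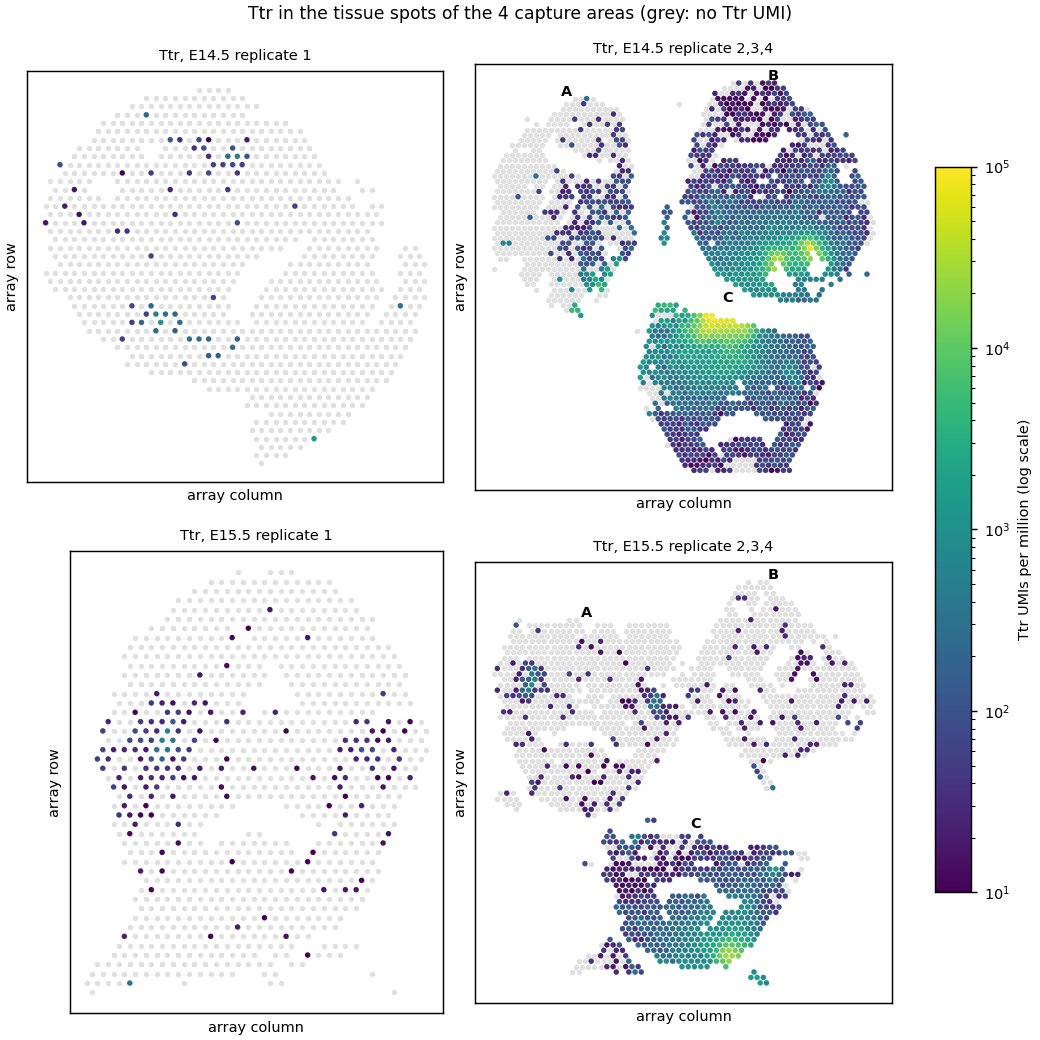
Ttr level of each tissue spot in CPM (log colour scale), drawn at the array row and column of the spot in the 4 capture areas, with sections A, B and C marked and spots without a Ttr UMI in grey. The highest spots lie in E14.5 sections B and C and near an edge of E15.5 section C, with levels declining outward from them.

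Folr1 stood at 1.88 CPM (replicate 1), 2.71 CPM (A), 10.8 CPM (B) and 29.6 CPM (C) at E14.5, and at 2.44, 3.74, 4.55 and 8.02 CPM in the same order at E15.5. Its order over the E14.5 sections was that of Ttr. Clic6 stood at 16.4, 42.2, 52.4 and 86.2 CPM at E14.5 and at 26.5, 28.45, 53.3 and 28.1 CPM at E15.5. Its highest E15.5 section, B, was the lowest for Ttr. Kcnj13 had 133 UMIs in all, and its sections lay between 0.1945 and 0.899 CPM. Kl had 107 UMIs in 105 spots, with no more than 2 in a spot. Its lowest section was E15.5 A with 0.1545 CPM (0.0502 to 0.3605) and its highest E15.5 C with 0.680 CPM (0.415 to 1.05), on 5 and 20 UMIs. The other 6 sections of Kl lay between these, so its order over sections rests on few molecules.

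The stages were compared over whole areas, 2 against 2, with edgeR's quasi-likelihood test across all genes. It called 0 of 15609 genes at an adjusted p under 0.1, which is 0% in either direction, while 930 genes had an unadjusted p under 0.05 and DESeq2 called 28. None of the 5 members was called. Without the E15.5 replicate 1 area, which leaves 1 area at E15.5, edgeR called 78 genes, 3 higher and 75 lower, and again no member. The log2 difference of Ttr, E15.5 against E14.5, was -3.33 with a standard error of 2.01 (edgeR adjusted p = 0.77). For Folr1 it was -1.45 with a standard error of 0.86 (edgeR adjusted p = 0.77). Clic6, Kcnj13 and Kl had log2 differences of -0.51, -0.28 and -0.04, with standard errors of 0.56, 0.59 and 0.52. The signs of Ttr, Folr1, Clic6 and Kcnj13 rested on the shared E14.5 area, and that of Kl also changed with DESeq2 (0.003), without TMM (0.039), with the replicate block (0.021) and without the E15.5 replicate 1 area (0.006). Without the shared E14.5 area, and with the lone E14.5 area assumed to vary like the others, the log2 differences were 3.97 for Ttr, 1.03 for Folr1, 0.88 for Clic6, 1.02 for Kcnj13 and 0.49 for Kl. The replicate number went together with the layout and the Space Ranger version, which cannot be told apart. Ttr was higher at E15.5 between the replicate 1 areas and higher at E14.5 between the shared areas, with 1 area per stage in each and so no spread.

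Spots of the choroid plexus were set from 13 genes of its epithelium, none of them a member, as spots with at least 6 UMIs of these genes per 10000 and at least 5 of the genes detected. There were 29 such spots, 7 in section B and 22 in section C at E14.5, and none in the other 3 areas. At a threshold of 3 UMIs per 10000, 74 spots of the shared E14.5 area, 2 of the E15.5 replicate 1 area and 9 of the shared E15.5 area qualified. No stage test over plexus spots could therefore be made. In the 29 spots, 12 of the 13 genes had UMIs, led by Htr2c, a serotonin receptor (706 UMIs), and Wfikkn2 (625 UMIs). Prlr was at 0, as was Otx2, a transcription factor that specifies the plexus, with a floor of 1.13 CPM. In spots of sections B and C more than 6 rings away, both also lay under this floor. Prlr had 0.691 and 0.652 CPM there and Otx2 0.167 and 0.237 CPM, so their 0 in plexus spots says little. In other spots, 40.3% to 80.6% of the UMIs of the list came from Slc29a4, a monoamine transporter, so a low level of the list says little there.

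Ttr reached 47654 CPM in the 29 plexus spots. A plexus spot of section C held between 1246 and 12447 Ttr UMIs (median 4585), or 2.23% to 11.6% of its UMIs. A plexus spot of section B held between 663 and 3289 (median 2552), or 1.97% to 7.39%. The ranges overlapped, with the highest spots in section C. Folr1 had 4 to 96 UMIs a spot in section C (median 35) and 5 to 41 in section B (median 21). Clic6 had 9 to 305 (median 77.5) and 11 to 105 (median 47). All 3 genes had a UMI in each of the 29 spots. Kcnj13 had a UMI in 12 of them, with at most 3, and Kl in 5, with at most 2. The 2 spots just inside the threshold held 2562 and 2552 Ttr UMIs, and the 2 just outside 855 and 650. The spots outside were shallower, and Ttr made up 2.89% and 1.97% of the UMIs inside against 2.115% and 2.01% outside.

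The plexus spots made up 1.255% of the spots of their area and 2.44% of its UMIs. They held 59.3% of the Ttr UMIs of the area (59.1% to 59.55%) and 55.2% of its Folr1 UMIs (52.9% to 57.4%). The share was 34.5% for Clic6 (33.4% to 35.6%), 31.3% for Kcnj13 (20.6% to 43.8%) and 13.3% for Kl (5.05% to 26.8%). The sections differed widely, and section C set these shares. Within section B the plexus spots held 28.3% of the Ttr UMIs, 24.1% of Folr1, 11.9% of Clic6, 4.35% of Kcnj13 and 4.17% of Kl, the last 2 on 1 UMI each. Within section C they held 70.6%, 71.1%, 56.1%, 51.3% and 26.3%. The shares also follow the threshold, since at 12 UMIs per 10000 the plexus spots held 22.5% of the Ttr UMIs of all 4 areas in place of 54.55%. Below, other spots are those that were neither plexus, pigment nor olfactory spots and lay more than 6 rings of spots from any plexus spot. Against the 1719 other spots of the area, the level in plexus spots was 274.7-fold higher for Ttr, 126.4-fold for Folr1, 31.04-fold for Kcnj13 (15.9 to 61.0), 25.3-fold for Clic6 and 7.02-fold for Kl (2.35 to 17.6). The values of Kcnj13 and Kl rest on 21 and 6 UMIs in plexus spots. The other spots include those of section A, which had no plexus spot and low Ttr. Within sections B and C the level of Ttr was 234.3-fold (226.8 to 242.2) and 200.1-fold (195.6 to 204.7) higher, both under the value for the area. Folr1 was 84.2-fold and 128.0-fold, Clic6 15.97-fold and 30.6-fold, and Kcnj13 9.80-fold (0.217 to 76.3) and 40.9-fold (16.6 to 114.5) higher. Kl was 4.90-fold (0.116 to 32.2) and 8.95-fold (2.30 to 31.03) higher. For Kcnj13 and Kl, section B had 1 UMI in plexus spots and showed no difference beyond counting error.

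Over genes, 10175 had enough UMIs to set plexus spots against spots more than 6 rings away in sections B and C. UMIs in plexus spots counted toward this limit, so scarce genes passed it more readily where they were high there. Ranked by the smaller of both log2 ratios, Ttr was the first, Folr1 number 5 and Clic6 number 32, and Kcnj13 and Kl had too few UMIs. Over 2-fold higher in both sections were 514 genes, or 5.05%, and over 2-fold lower 1011, or 9.94%. The median log2 ratio of all genes was -0.04 in section B and 0.02 in section C. All of this comes from 1 capture area, and no test stands behind it.

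Genes around the cargo of Ttr were mixed. Of 11 genes of thyroid hormone and retinol handling, 8 could be compared, of which 2 were over 2-fold higher in both sections and 1 over 2-fold lower, with median log2 ratios of 0.79 and 0.52. These 3 were named after their values were seen. In section B, Slco1c1 and Lrp2 had enough UMIs only through the plexus spots (42 and 13 UMIs). Their count as higher was thus in part set by the limit on UMIs. Slco1c1, a thyroxine transporter, stood at 78.7 and 64.9 CPM in the plexus spots of sections B and C against 2.025 and 2.55 CPM far away, and the endocytic receptor Lrp2 at 24.35 and 41.9 CPM against 5.003 and 3.56 CPM. Dio3, which inactivates thyroid hormone, stood at 13.1 and 15.5 CPM against 50.8 and 51.8 CPM. The thyroid hormone receptor Thra had 170.5 and 164.2 CPM against 190.3 and 182.7 CPM.

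Of 15 folate genes, 12 could be compared and 1 was over 2-fold higher in both sections, with median log2 ratios of -0.35 and -0.09 beside 5.996 and 6.75 for Folr1. The 1 gene was Aldh1l1, a folate enzyme of astroglia, named after its values were seen (61.8 and 23.05 CPM against 4.265 and 4.39 CPM). In section B, Aldh1l1 had enough UMIs only through the plexus spots (33 UMIs). Shmt2, a mitochondrial folate enzyme, had 118.0 and 85.6 CPM against 147.6 and 139.3 CPM, and Tyms, which makes thymidylate, 93.7 and 88.45 CPM against 107.8 and 95.4 CPM. Of 14 genes around klotho, 6 could be compared and 0 passed 2-fold in both sections, with medians of -0.20 and 0.32. Fgfr1, a receptor that klotho pairs with, had 837.3 and 936.7 CPM against 630.8 and 811.9 CPM, and Fgf15 116.1 and 235.2 CPM against 334.7 and 247.3 CPM. Of the family of Clic6, Clic1 alone could be compared, with 282.9 and 338.3 CPM against 353.3 and 387.4 CPM. Clic3 had 2 and 3 UMIs in the plexus spots of the sections.

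Of 18 genes of ion and water transport, 14 could be compared, of which 5 were over 2-fold higher in both sections (among them Kcnj10, Slc4a2, Car12 and Car14) and 2 over 2-fold lower (Slc12a4 and Trpv4), with medians of 0.36 and 0.38. Slc4a2, an anion exchanger, had 305.3 and 304.4 CPM against 151.4 and 147.4 CPM. Of 16 genes of plexus identity, 13 could be compared, of which 5 were higher (Lmx1a, Gmnc, Sostdc1, Enpp2 and Ezr) and Igf2 was lower, with medians of 0.34 and 1.48. Ezr, which ties the membrane of microvilli to actin, had 826.1 and 963.0 CPM against 145.8 and 119.2 CPM. Igfbp2, which binds insulin-like growth factors, had 636.9 and 1990 CPM against 503.2 and 395.5 CPM. Apart from Slc4a2, Car14 and Ezr, the genes counted as higher or lower here were named after their values were seen. In section B, Kcnj10, Car14, Gmnc and Lmx1a had enough UMIs only through the plexus spots (16, 31, 20 and 22 UMIs).

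Markers of other cell types were counted in the plexus spots as well. Of the 4 neuron genes, Neurod6, named after its values were seen, was over 2-fold higher in both sections (296.0 and 122.3 CPM against 89.7 and 26.1 CPM), while Stmn2 had 751.2 and 535.4 CPM against 1032 and 705.0 CPM. Mapt had 191.1 and 175.0 CPM against 367.3 and 238.9 CPM, and Grin2b 63.7 and 33.4 CPM against 94.75 and 54.8 CPM. The 4 genes summed to 953.6 CPM in plexus spots against 1271 CPM in other spots of the area. The plexus spots thus held neuronal transcripts as well, of which Neurod6 alone was higher than far away. Of the 7 multiciliated genes, Rsph1 and Tekt1 could be compared and were over 2-fold higher in both sections. In section B both had enough UMIs only through the plexus spots (43 and 12 UMIs). The other genes of the list had too few UMIs there and went both ways. Foxj1 had 6 and 90 UMIs in the plexus spots of sections B and C, and Ccdc153 had 0 and 5. The 7 genes summed to 237.3 CPM against 33.0 CPM in other spots of the area. All 5 neural retina genes that could be compared were over 2-fold lower. Of the pigment genes, Dct had 267.9 CPM in section B against 85.6 CPM far away, and 44.7 CPM in section C against 69.6 CPM. Pmel, which forms the fibres of pigment granules, had 7.49 and 12.2 CPM against 175.1 and 141.4 CPM. Of the visual cycle genes, Rlbp1 had 56.2 and 30.6 CPM against 14.4 and 12.5 CPM, and Rdh5 had 0 and 16 UMIs. Alb and Afp, defining genes of hepatocytes, which also make Ttr, had 1 and 0 UMIs in the 29 spots. For Afp the floor was 1.13 CPM.

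Ttr was lower with each ring of spots away from the plexus spots. In both sections together it went from 47654 CPM to 13161 CPM in ring 1 (32 spots), 5478 CPM in ring 2, 2389 CPM in ring 3, 1073 CPM in rings 4 to 6 and 195.7 CPM beyond. In percent of the plexus level these were 27.6%, 11.5%, 5.01%, 2.25% and 0.411%. For Folr1 the same percentages were 22.6%, 10.1%, 3.89%, 2.29% and 1.04%. For Clic6 they were 19.85%, 8.46%, 3.92%, 2.325% and 4.52%, so that Clic6 was higher beyond 6 rings (41.6 CPM) than in rings 4 to 6 (21.4 CPM). Kcnj13 went from 21 UMIs in plexus spots (7.90 CPM) to 4 in ring 1 (1.64 CPM). That difference came from section C (20 and 1 UMIs), while section B had 1 UMI in plexus spots and 3 in ring 1.

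In both sections together, the ratios of Folr1 and Clic6 to Ttr differed less over the rings than the levels of these genes did, out to 6 rings. Folr1 had 8.35 UMIs per 1000 Ttr UMIs in plexus spots (7.85 to 8.87), 6.83 in ring 1 (5.955 to 7.80), 8.48 in rings 4 to 6 (6.95 to 10.25) and 21.2 beyond (18.9 to 23.7). Clic6 had 19.3 (18.55 to 20.1), 13.9 (12.6 to 15.25), 19.9 (17.5 to 22.6) and 212.8 (204.7 to 221.1). For Clic6 the sections went opposite ways in rings 4 to 6. Section B had 28.2 (23.8 to 33.3) there and 22.1 (19.8 to 24.55) in plexus spots, whose intervals overlapped, and section C 14.2 (11.6 to 17.2) and 18.9 (18.1 to 19.8), whose intervals did not. Beyond 6 rings Clic6 had 346.9 in section B and 129.6 in section C. Beyond 6 rings both genes thus had more UMIs for each Ttr UMI than nearer the plexus. Whether molecules that spread on the slide, plexus tissue under the threshold or other cells gave the counts in the rings was not tested.

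**Figure D2:**
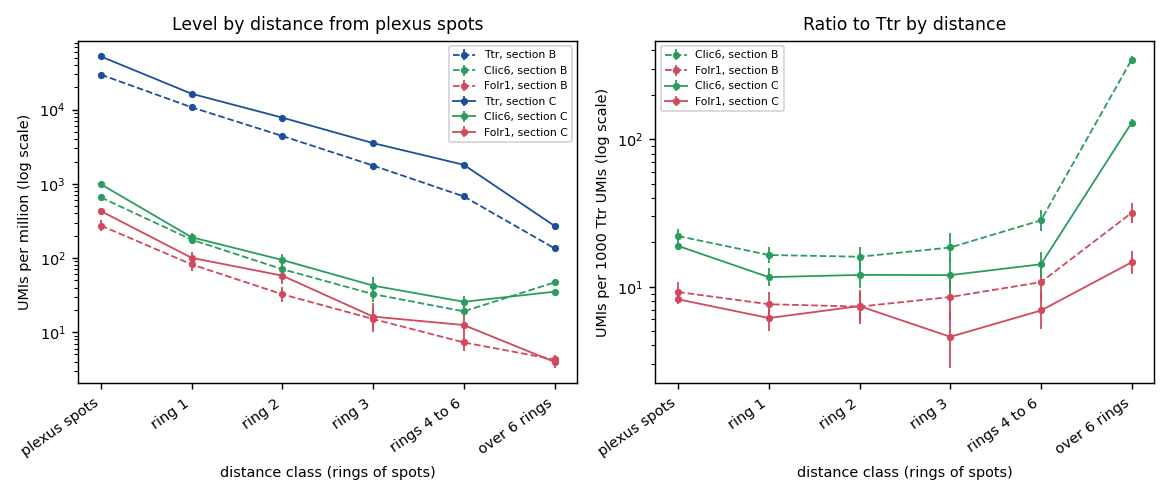
Left, levels of Ttr, Clic6 and Folr1 in CPM (log scale) by distance from the plexus spots, in rings of spots, for E14.5 sections B (dashed) and C (solid). Right, Clic6 and Folr1 UMIs per 1000 Ttr UMIs (log scale) over the same classes, with exact 95% intervals of counting error as bars. The levels decline together out to 6 rings, and beyond 6 rings both ratios are higher than in plexus spots.

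Ttr declined further across the slide. In other spots of section C it was 647.6 CPM at 7 to 12 rings from the nearest plexus spot, 115.8 CPM at 13 to 20 and 52.9 CPM at 21 to 30. In section B it was 288.5, 65.3 and 21.03 CPM over the same distances. Section A at E14.5 had no plexus spot of its own, yet its other spots stood at 68.3 CPM (59.0 to 78.6) at 21 to 30 rings from the plexus spots of its neighbours and at 16.5 CPM (12.96 to 20.65) at 31 to 49. Depth moved with this distance, with a median of 14907 UMIs in the nearer and 5786 in the farther spots, and its part was not tested. Folr1 had 1.41 and 1.32 CPM in the same spots, on 4 and 6 UMIs, and Clic6 33.1 and 27.7 CPM. In the replicate 1 areas, which had no spot rich in Ttr, the other spots stood at 5.31 CPM at E14.5 and 3.35 CPM at E15.5. Sections A and B at E15.5 shared their area with the spots rich in Ttr of section C. Their other spots stood at 6.02 CPM (5.17 to 6.96) and 3.70 CPM (2.92 to 4.635). Section A lay above the E15.5 replicate 1 area (2.91 to 3.85) beyond counting error, and section B did not. Low Ttr levels thus went with distance from the plexus spots in the shared E14.5 area. In the shared E15.5 area, section A but not section B stood above the replicate 1 area of its stage. The cause of this was not tested.

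In section C at E15.5, 10 spots had at least 1% of their UMIs from Ttr, beside 17 in section B and 37 in section C at E14.5 and 0 in the other sections. Ttr chose these spots, so its level in them (17971.5 CPM at E15.5) is a description. None of the 10 reached the threshold for plexus spots. The 13 plexus genes summed to 270.6 CPM in them against 90.5 CPM in spots of the section more than 6 rings from them. Htr2c had 78.7 CPM (32 UMIs) against 0.449 CPM and Kcne2, a potassium channel subunit, 22.1 CPM (9 UMIs) against 0.286 CPM. Wfikkn2 had 29.5 CPM against 24.99 CPM. Tmem72 had 0 UMIs, and its 1.96 CPM farther away lies under the floor of 7.38 CPM. Of other genes of the plexus lineage or of ciliated cells, Lmx1a had 39.4 CPM against 7.84 CPM, Foxj1 24.6 CPM against 4.002 CPM and Sostdc1 206.6 CPM against 208.5 CPM.

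Folr1 had 10.5 UMIs per 1000 Ttr UMIs in these 10 spots (8.31 to 13.2), beside 8.37 (7.29 to 9.56) and 7.91 (7.43 to 8.41) in the spots chosen alike in E14.5 sections B and C. Clic6 had 13.3 (10.75 to 16.2), beside 20.15 (18.45 to 22.0) and 17.9 (17.15 to 18.6). The interval of Folr1 overlapped those of both E14.5 sections and that of Clic6 neither, but 1 section at E15.5 gives no spread between embryos. Kcnj13 had 0 of 406533 UMIs, with a floor of 7.38 CPM, and Kl had 1 UMI.

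Pigment spots were set from 8 pigment genes, led by Pmel, as spots with at least 10 UMIs of these genes per 10000 and at least 3 of them detected, more than 1 ring from any plexus spot. There were 31, 136, 55 and 144 in the E14.5 replicate 1, shared E14.5, E15.5 replicate 1 and shared E15.5 areas. The 6 neural retina genes summed to 970.8 to 1956 CPM in them against 85.9 to 253.2 CPM in other spots. Defining enzymes of the mature retinal pigment epithelium were nearly absent, with 1 UMI each of Rpe65 and Lrat in all 366 spots, while Rlbp1 and Rdh5 had UMIs in every section. The 3 lens genes summed to 9523, 4816 and 8612 CPM in pigment spots of the shared E14.5, E15.5 replicate 1 and shared E15.5 areas. Other spots of these areas had 1909, 474.7 and 1866 CPM. In the E14.5 replicate 1 pigment spots the lens genes had 0 UMIs, with a floor of 6.86 CPM. The spots thus hold pigmented tissue together with neural retina and, in these areas, lens transcripts. They cannot be called pigment epithelium alone.

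Folr1 was higher in pigment than in other spots of all 4 areas. It was 27.4 against 1.19 CPM and 13.8 against 3.15 CPM in the E14.5 areas, replicate 1 first, and 18.8 against 1.496 CPM and 21.35 against 4.42 CPM in the E15.5 areas. By section it ran from 10.95 CPM (E15.5 C) to 30.65 CPM (E14.5 A) and was above the other spots in all 8. The difference was least in E15.5 section C, where the intervals overlapped (5.985 to 18.4 against 6.86 to 8.97). Other spots there had 221 Folr1 UMIs and include the 10 spots rich in Ttr, which held 77 Folr1 UMIs. Ttr was higher in pigment spots of both replicate 1 areas, with 57.1 against 5.31 CPM at E14.5 and 95.2 against 3.35 CPM at E15.5. In the shared areas Ttr had 220.1 against 173.5 CPM at E14.5 and 89.9 against 217.8 CPM at E15.5. At E14.5 it was higher in pigment spots of sections A (106.1 against 37.6 CPM) and B (218.3 against 126.7 CPM) but not C (242.6 against 260.7 CPM). Distance from the plexus spots was not matched. Other spots had 288.5 CPM at 7 to 12 rings in section B and 68.3 CPM at 21 to 30 rings in section A. The E15.5 value came from section C, with 211.9 against 614.3 CPM, where the spots rich in Ttr count as other spots. Section A at E15.5 had 102.6 against 6.02 CPM. Section B at E15.5 differed, with Ttr at 5.695 CPM (2.94 to 9.95) in its 66 pigment spots against 3.70 CPM, while Folr1 there was 24.7 CPM. Those spots had the highest pigment gene level of all sections (2707 CPM) and the lowest neural retina level (725.6 CPM), whose part in the Ttr level was not tested.

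Kcnj13 had 2.15 and 2.33 CPM in the pigment spots of the E15.5 areas, 9.35-fold (3.40 to 23.9) and 7.84-fold (3.57 to 16.3) above other spots. In the shared E14.5 area it had 0.985 CPM, 3.87-fold (1.375 to 9.62) above. In the E14.5 replicate 1 area it had 0 UMIs, with a floor of 6.86 CPM. These levels rest on 8, 12 and 7 UMIs. Kl had 1 UMI in the pigment spots of each shared area and 0 in the replicate 1 areas, too few to set it against other spots. By area, Clic6 had 34.15 to 53.05 CPM, between 1.46-fold and 3.465-fold above other spots. By section, Clic6 was not above other spots in E14.5 A (28.3 against 29.7 CPM) or E15.5 B (34.2 against 39.4 CPM). Its median over areas of 42.1 CPM became 28.5 CPM when the pigment threshold was halved and 71.0 CPM when it was doubled.

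Upstream windows of RefSeq (GRCm38.p6) matched 2 of the 5 members, Kcnj13 and Kl. They are shown because Kcnj13 was higher than in other spots both in plexus spots and in pigment spots of 3 areas, and Kl in plexus spots of both sections together. The windows span the 250 bases before the start, at chr1:87394730-87394979 (minus strand) and chr5:150952357-150952606 (plus strand), written 5′ to 3′. Capitals mark a match to CATGTG, the M-box bound by the pigment cell factor Mitf, on either strand. TAATCC, a site of the Otx type, was also searched on both strands, and these motifs do not overlap.
Kcnj13: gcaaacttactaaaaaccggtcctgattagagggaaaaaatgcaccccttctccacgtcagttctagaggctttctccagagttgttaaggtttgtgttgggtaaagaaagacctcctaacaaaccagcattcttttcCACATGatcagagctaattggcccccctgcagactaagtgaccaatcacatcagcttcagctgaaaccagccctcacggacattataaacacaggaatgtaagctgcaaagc
Kl: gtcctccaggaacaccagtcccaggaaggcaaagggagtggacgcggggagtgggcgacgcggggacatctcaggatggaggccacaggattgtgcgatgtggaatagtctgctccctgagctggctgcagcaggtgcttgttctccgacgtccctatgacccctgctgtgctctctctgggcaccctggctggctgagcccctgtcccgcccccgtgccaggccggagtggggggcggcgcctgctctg
The Kcnj13 window holds CATGTG once, on the opposite strand, 112 bases before the start, and TAATCC is in neither window. Of 32851 upstream windows of the same length, 12.3% hold CATGTG and 6.25% TAATCC. A match is a run of letters only, and no binding was measured.

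Away from the plexus, Clic6 had levels of its own near the middle of most sections. Olfactory spots were set from 10 genes of the olfactory epithelium, 8 of them in the files, at 2 UMIs per 10000 and 2 genes detected. That list was chosen after the map of Clic6 had been seen, so the values are a description. Clic6 had 95.3 CPM (73.6 to 121.5) and 133.4 CPM (121.5 to 146.1) in the olfactory spots of the E14.5 areas, replicate 1 first, and 156.3 CPM (142.0 to 171.7) and 174.7 CPM (160.4 to 190.0) in those of the E15.5 areas. Against other spots these were 8.03-fold, 3.67-fold, 7.79-fold and 6.07-fold higher. These levels follow the threshold, since the median over areas of 144.9 CPM became 70.3 CPM when the olfactory threshold was halved and 211.8 CPM when it was doubled. The olfactory spots of E15.5 section C were only 2, without a Clic6 UMI, with a floor of 70.8 CPM.

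The other members had few UMIs in these spots, apart from Ttr in the shared E14.5 area. Ttr had 1 UMI in the olfactory spots of each replicate 1 area, where Clic6 had 65 and 436, and 5.09 CPM in the shared E15.5 area. In the shared E14.5 area Ttr had 233.3 CPM, led by 717.9 CPM in the 8 spots of section C. Folr1 lay between 1.08 and 2.89 CPM in 3 areas, with ratios to other spots from 0.576 to 0.918. In the E14.5 replicate 1 area it had 0 UMIs, with a floor of 4.40 CPM, above the level of other spots. Kcnj13 had 0, 2, 4 and 1 UMIs over the 4 areas, and the 4 UMIs of the E15.5 replicate 1 area were 6.23-fold above other spots (1.49 to 19.8). Kl had 2 UMIs in all. The 7 multiciliated genes summed to 38.1 to 89.8 CPM in olfactory spots against 18.6 to 37.3 CPM in other spots, and their part in the Clic6 level was not tested.

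**Figure D3:**
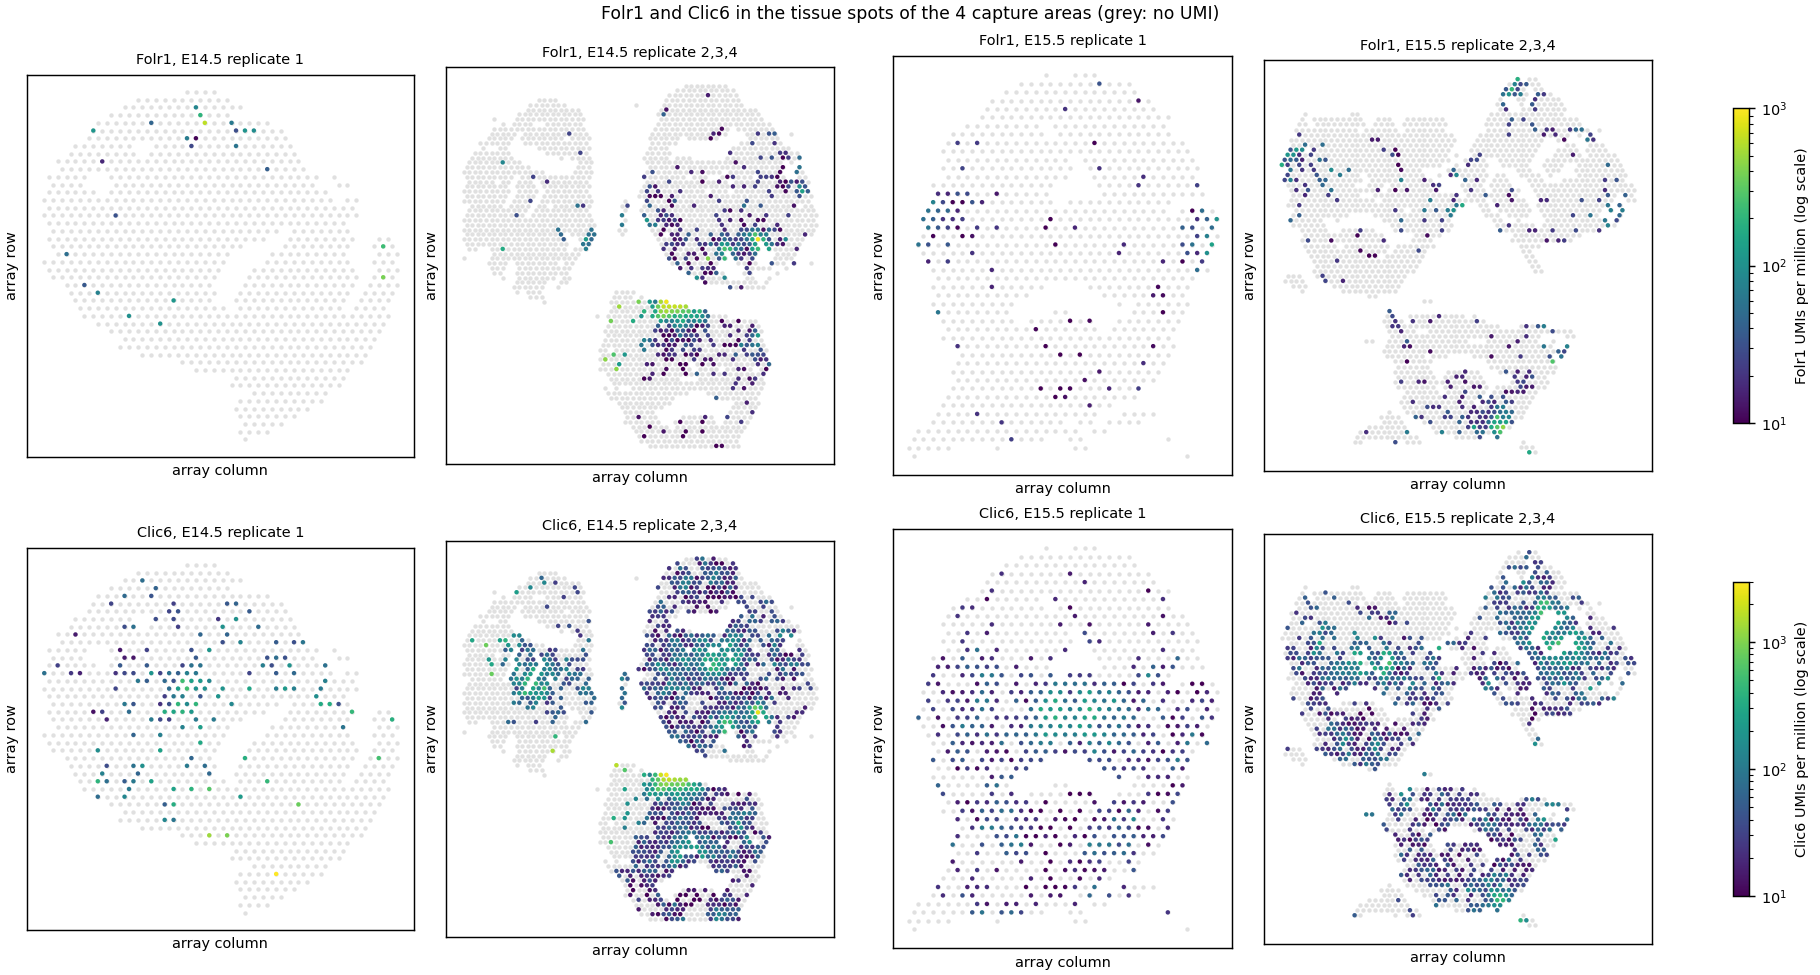
Folr1 (top) and Clic6 (bottom) levels of each tissue spot in CPM (log colour scale) at the array position of the spot in the 4 capture areas, with spots without a UMI in grey. Both are highest around the plexus spots of the shared E14.5 area. Folr1 also lies toward the sides of sections and Clic6 near their middle.

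**Figure D4:**
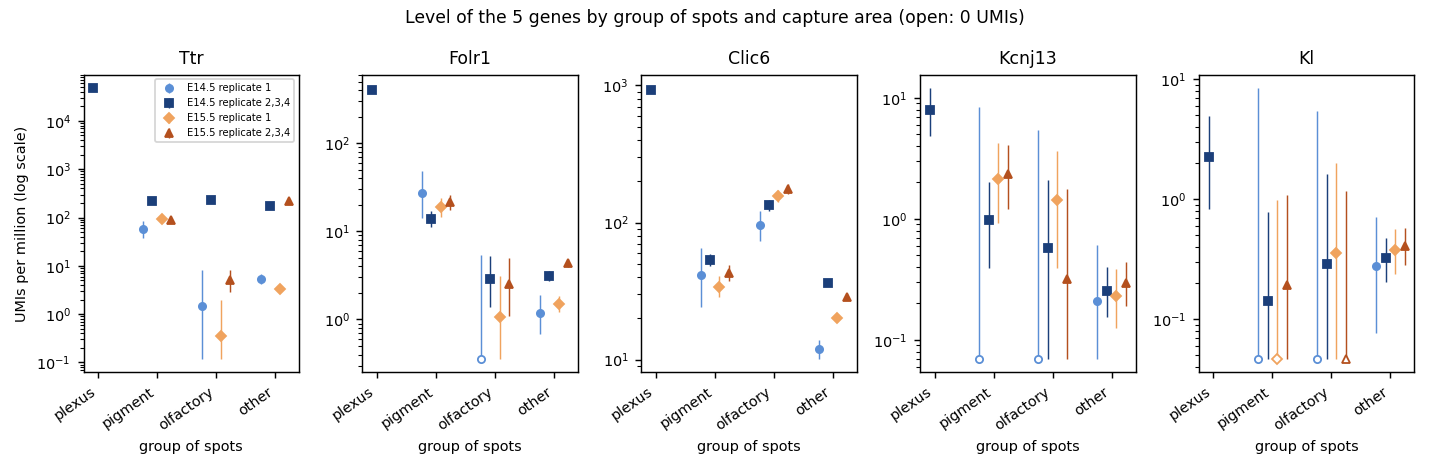
Levels in CPM (log scale) of the 5 genes in plexus, pigment, olfactory and other spots, with a symbol per capture area, exact 95% Poisson bars and open symbols at an arbitrary low position for 0 UMIs, where lower bars also end. The shared E14.5 area alone has plexus spots. Folr1 is higher in pigment than in other spots in all 4 areas, and Clic6 higher in olfactory than in pigment or other spots.

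The stages were also compared without plexus and pigment spots and their direct neighbours. At E15.5 no spot had reached the plexus threshold. The 10 spots rich in Ttr of E15.5 section C, with 7306 Ttr UMIs, were thus not left out as plexus. The shared E15.5 area kept 17409 Ttr UMIs in this comparison. edgeR called 0 of 15505 genes, again 0% in either direction, with 1045 at an unadjusted p under 0.05 and 52 called by DESeq2. Ttr had 2.56 and 577.6 CPM in the E14.5 areas and 1.98 and 222.3 CPM in the E15.5 areas, a log2 difference of -1.49 with a standard error of 2.06 (edgeR adjusted p = 0.847). Clic6 had 16.1 and 39.9 CPM against 26.4 and 34.9 CPM, a log2 difference of 0.03 (edgeR adjusted p = 0.987). Folr1 had 0.804 and 5.31 CPM against 0.965 and 4.06 CPM, a log2 difference of -0.46 (edgeR adjusted p = 0.891). The ranges of the stages overlapped for all 3 genes. Between areas of the same layout, Ttr was lower at E15.5 in both pairs. In the replicate 1 pair the intervals overlapped (1.78 to 3.56 at E14.5 and 1.64 to 2.37 at E15.5), on 35 and 117 UMIs. With the replicate number, and so the layout, as a block, edgeR called 579 of 15505 genes, 165 higher and 414 lower. Among them was Ttr at a log2 difference of -1.05 (edgeR adjusted p = 0.0538) and no other member. The fit rests on 2 pairs of areas, so its spread is poorly known. Only direct neighbours of plexus spots were left out, and ring 2 in E14.5 sections B and C held 17929 Ttr UMIs (5478 CPM). With 3 rings around plexus and pigment spots left out, the log2 difference of Ttr was -0.47 (edgeR adjusted p = 0.961). Without the E15.5 replicate 1 area edgeR called 80 genes, 3 higher and 77 lower, and no member. Without the block, edgeR called no gene of any list in either comparison with all 4 areas. The 13 plexus genes had a median log2 difference of -0.14 over all tissue and 0.06 without these spots, beside -0.00165 and -0.00181 for all genes.

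Genes with a pattern most like a member were sought among 11143 genes with at least 100 UMIs in every area, by the median over the 4 areas of Pearson's r of log2(UMIs per 10000 + 1) across spots. Neighbouring spots share cells and depth, so r is a description. For Ttr the first was Car14, a carbonic anhydrase (median r 0.303, from 0.096 to 0.384). Six3, Adgrv1, Dach1, Pitpnm1, Ckb, Ecrg4, Dpysl4, Hes5 and Isl1 followed, with medians from 0.24 to 0.168. Of these 10, Car14 and Adgrv1 had r above 0 in all 4 areas, Adgrv1 with 0.003 in the shared E15.5 area. The closest gene differed by area, with Pmel in both replicate 1 areas (0.265 and 0.49), Bcan in the shared E14.5 area (0.622) and Ecrg4 in the shared E15.5 area (0.354).

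For Folr1 the closest genes were Car14 (median r 0.385), Trpm3 (0.294) and Tyr (0.275), an enzyme of pigment synthesis. For Clic6 they were Fam107a (0.412), Rbm47 (0.41) and Ephx1 (0.405). For Kcnj13 they included Car14 and Adgrv1, and for Kl they were Tbc1d8, Ccdc141 and Ppargc1b, with medians of at most 0.1, which in such sparse counts is no finding. Between Ttr and Folr1, r was 0.583 in the shared E14.5 area and 0.385 in the shared E15.5 area, and -0.006 and 0.092 in the replicate 1 areas. The pair thus went together across spots in the areas with spots rich in Ttr.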

How the data were processed

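Unnormalized UMI counts of each gene in each spot, and where the spots lie, were deposited by the authors. They used Space Ranger, version 1.3.1 where an area held replicate 1 and 2.0.0 elsewhere, and the mm10 build per the labels. Only spots over tissue were used. This left out 19 barcodes, 12 tissue spots had no counts, and 88 spots belonged to no section. No spot was filtered on depth, and no doublet caller was run.

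The members and gene lists were chosen with earlier results of these data known, and the thresholds for plexus, pigment and olfactory spots after the levels of their lists had been seen. Counts were summed per area and tested with edgeR 4.0.16 (quasi-likelihood, TMM, Benjamini-Hochberg) in R 4.3.3, with DESeq2 1.42.0 as an alternative. The fits were tested on simulated data. The labels do not say that areas hold separate litters, so p-values measure the spread between 2 areas per stage. Ratios of plexus to far spots had 0.5 UMIs added on both sides, and a gene was compared where its UMIs in plexus spots plus those expected from the far level reached 10 in both sections. Genes were named by rule: the members, the 2 genes of each list with the most UMIs in plexus spots, and the genes most like each member. Some genes that the rule names are not reported here, and every other gene was named after its values were seen, also where the text does not say so. Intervals are Poisson or binomial, computed with scipy 1.17.1.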

Additional observations from a re-analysis of the deposited data

Results flagged for a closer look

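Levels of the 5 members were searched for a section far from the others in 10 groups of 4 sections, where chance would mark about 1 in 20. Ttr in E15.5 section C, at 596.1 CPM, stood apart from the other 3 sections of its stage (gap over range 0.988). Clic6 in E15.5 section B, at 53.27 CPM, stood apart likewise (0.926), in the section with the most olfactory spots of that area (43). Barcodes outside the tissue, which no comparison used, also held UMIs. A barcode of the shared E14.5 area with 39013 UMIs, 2 rings from a plexus spot, held 152 Ttr UMIs, 1 of Folr1 and 3 of Clic6. A barcode of the shared E15.5 area with 43464 UMIs held 9 Clic6 UMIs and 0 of Ttr.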

How the results depend on the processing

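Among values of single genes under alternatives, 111 kept their direction and side of the threshold, 24 changed sign and 1 passed the threshold. Depth limited Kl and Kcnj13 most, and no plexus stage test was run under any alternative. At the main threshold 3 areas had under 5 plexus spots. At 3 UMIs per 10000 the shared E15.5 area had 9. The E14.5 replicate 1 area then had 0 and the E15.5 replicate 1 area 2, both still under 5. DESeq2 called 28 genes between stages over all tissue and 52 away from plexus and pigment spots, against 0 by edgeR. Leaving out each area gave 0 to 78 calls over all tissue and 0 to 80 away from these spots, where the lone area left in a stage is assumed to vary like the others.

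With the replicate number as a block (replicate block, 2 pairs), 0 of 15609 genes were called over all tissue. Away from plexus and pigment spots 579 of 15505 were called, with Ttr at a log2 difference of -1.05 (edgeR adjusted p = 0.0538). The labels do not say that numbers pair areas, and deviations of same-numbered areas had r = 0.279 over 11143 genes. Over all tissue the block gave log2 differences of 0.02 for Kl and -1.61 for Ttr (edgeR adjusted p = 0.481).

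Over all tissue, leaving out each area gave log2 differences from -6.96 to 3.97 for Ttr, -0.26 to 0.49 for Kl, -2.28 to 1.03 for Folr1, -1.19 to 0.88 for Clic6 and -0.72 to 1.02 for Kcnj13. Away from plexus and pigment spots the ranges were -7.26 to 5.41, -0.20 to 0.34, -1.79 to 1.61, -0.49 to 0.90 and -0.45 to 0.87. Signs also changed for Kl over all tissue with DESeq2 (0.003) and without TMM (0.039). Away from these spots they changed for Kl without TMM (0.044), for Clic6 with sections as samples (-0.054), for Kcnj13 with the marker thresholds halved (0.20), and for Kl (0.021) and Clic6 (-0.12) with them doubled. With 3 rings left out, Ttr was at -0.47 in place of -1.49, Kl at 0.17, Folr1 at 0.009 and Kcnj13 at 0.021. The cause was not tested.

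Of the UMIs of all 4 areas, plexus spots held 54.55% for Ttr, 40.9% for Folr1, 20.03% for Clic6, 15.8% for Kcnj13 and 5.61% for Kl. At a threshold of 3 UMIs per 10000 (85 spots) Ttr had 69.5%, Folr1 50.6% and Clic6 24.35%. At 12 (7 spots) the shares were 22.5%, 17.7%, 9.76%, 6.77% for Kcnj13 and 0.935% for Kl. With each spot thinned to 2000 UMIs, which left out 456 spots, they were 45.4%, 28.1%, 11.5%, 0.0% and 0.0%. Leaving out each area gave 0.0% to 59.2% for Ttr, 0.0% to 50.1% for Folr1, 0.0% to 26.8% for Clic6, 0.0% to 21.9% for Kcnj13 and 0.0% to 8.22% for Kl.

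Clic6 in pigment spots had a median over areas of 42.1 CPM, against 28.5 CPM when the pigment threshold was halved and 71.0 CPM when doubled, and Kcnj13 0.0 CPM in place of 1.57 CPM when thinned. In alternatives chosen after seeing the data, as were the numbers of plexus spots at other thresholds, Clic6 in olfactory spots had 70.3 and 211.8 CPM in place of 144.9 CPM at a lower and a higher threshold. Of the 10 genes most like Ttr, 6 remained with Spearman's correlation and 4 after thinning.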

Other observations

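Among the 10175 genes compared between plexus spots and spots more than 6 rings away, several outside the lists ranked with Ttr, and were named after their values were seen. Slco1a4, an organic anion transporter, had 95.5 and 184.0 CPM in the plexus spots of sections B and C against 0.548 and 1.22 CPM. Cfap43, a gene of motile cilia, had 76.8 and 123.7 CPM against 1.57 and 1.78 CPM. Bcan, which encodes the matrix protein brevican, had 382.1 and 445.5 CPM against 9.70 and 12.4 CPM, and Mlc1 185.4 and 168.9 CPM against 3.93 and 4.98 CPM. The transcription factor Rfx4 had 43.1 and 35.8 CPM against 1.14 and 1.22 CPM. In section B, each of these genes had enough UMIs to be compared only through the plexus spots. These values come from 1 capture area and carry no test.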
